A study of Mus musculus with 6 samples.

Results

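The AP-1 and EGR immediate early factors are 10 transcription factor genes: Fos, Fosb, Fosl1 and Fosl2 of the Fos family, Jun, Junb and Jund of the Jun family, and Egr1, Egr2 and Egr3. They were followed in BV-2 cells with and without lipopolysaccharide (LPS). A member was represented by the array row whose annotation names that gene alone, and by the row with the highest mean where a gene had several. This gave 9 of the 10 members a row, out of 22180 genes with such a row and 41345 rows in all. Fosl1 shares its row with Ccdc85b and is not compared here. BV-2 is a line of mouse microglia, the macrophages of the brain, transformed with a retrovirus holding the oncogenes raf and myc. The 3 control arrays hold RNA of resting cells, and the 3 LPS arrays that of cells given 1 µg/mL LPS of Escherichia coli O111:B4 for 24 h. Both groups were plated in medium with 2.5% serum, and when the controls were collected is not given in the sources used here. The series has 1 LPS time point. Nothing says that replicates were separate cultures, so p-values reflect only the spread among these samples, which could be technical. Values are per extract, and fewer expressing cells cannot be told apart from less RNA per cell.

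Immediate early genes are transcribed within minutes of a stimulus, without new protein synthesis, and their messages decay fast. Fos proteins pair with Jun proteins through a leucine zipper to form AP-1, whose sites match the pattern TGANTCA. Jun proteins can also pair with each other. EGR proteins bind GC-rich sites through zinc fingers. In macrophages and microglia, LPS acts on Toll-like receptor 4 and, through MAP kinases, on both families. The oncogene raf carried by BV-2 codes for a kinase at the head of the same ERK branch of that cascade.

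Of 9 members tested, 0 were called higher and 0 lower at adjusted p under 0.05 (limma, Benjamini-Hochberg over all rows). Of all 41345 rows, 0.193% were called higher and 0% lower. By an unadjusted p of 0.05, 1 member, Jund, was higher and 0 were lower, against 4.98% and 1.4% of all rows. In 2 members, Jund and Fosl2, all LPS values lay above all control values, as in 7.74% of all rows, and in 0 members they lay wholly below, against 3.48%. The median log2 fold change of the members was 0.235, and that of all genes 0.03. Without the 2 arrays that stand apart (control replicate 2 and LPS replicate 3) these were 0.225 and -0.027. Both medians of the members are the value of Fosl2. Many of all rows are dim, whereas Fos, Fosl2, Jun, Junb, Jund and Egr2 have a mean level of 5 to 8. The 5899 genes of that level had a median of 0.17, or -0.0011 without those arrays. Of them, 1016 lay wholly above and 58 wholly below, and 743 were higher and 62 lower by an unadjusted p of 0.05 (limma). With 3 arrays per group the members' intervals were wide, so the missed threshold does not show that levels were alike.

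**Figure D1:**
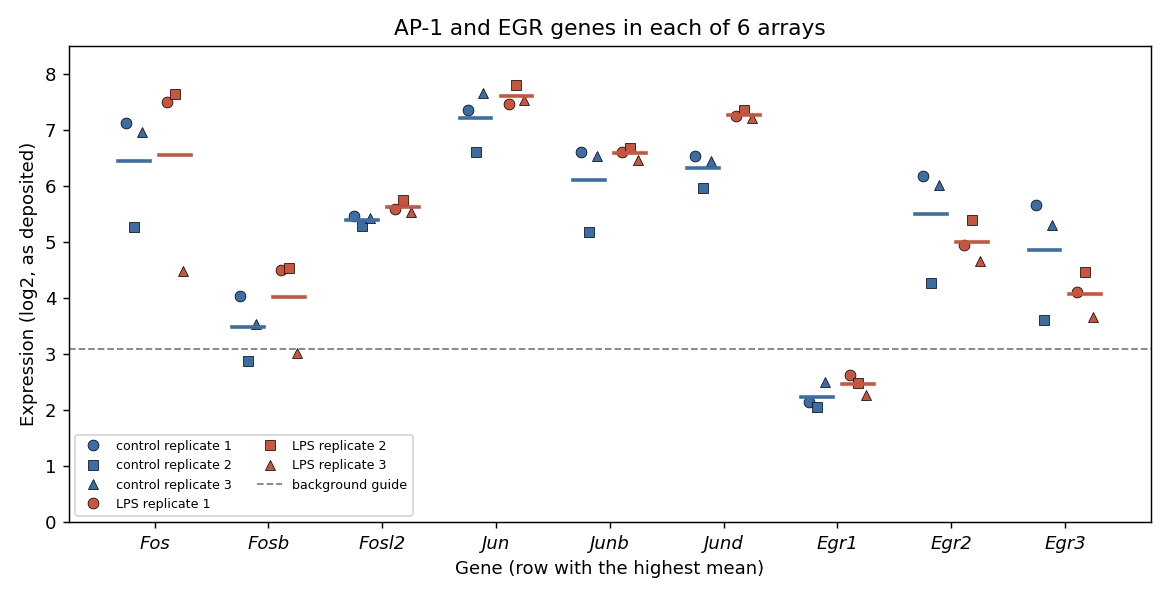
Deposited log2 expression (y axis) of the 9 members (x axis) on each array. Blue marks controls and red LPS, the marker shape gives the replicate, bars are group means of 3 arrays, and the dashed line at 3.09 is a guide to background. Jund separates the groups, with controls up to 6.54 and LPS arrays from 7.21. Fos is low on control replicate 2 (5.27) and LPS replicate 3 (4.49).

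As a guide to background, the 1438 rows of olfactory, vomeronasal and taste receptors reached 3.09 (log2) at their 95th percentile, and 8 members had a mean above it. All 10 microglia and macrophage markers examined did too, among them Csf1r, Itgam and Spi1. None of 5 astrocyte, 4 oligodendrocyte or 4 lymphocyte markers did, and 1 of 5 neuronal and 1 of 5 fibroblast markers did, Rbfox3 and Col1a2. Array medians lay between 2.88 and 2.97, under that guide. Upper quartiles differed more, from 4.85 for control replicate 2 to 5.27 for LPS replicate 3. Control replicate 2 and LPS replicate 3 stood apart from the other arrays of their groups. In genes with a mean level of 5 to 8, control replicate 2 was lower than the mean of the other controls by a median difference of -0.46, and 15.7% of them differed by over 1 unit, against 1.25% and 1.39% for the other controls. LPS replicate 3 differed from the other LPS arrays by a median of only 0.08, but 6.59% of these genes differed by over 1 unit, against 0.559% and 1.88% for the other LPS arrays. Each member is therefore given with and without these arrays. In a fit without them, 0 members were called, while 0.368% of all rows were called higher and 0.162% lower. The 2 arrays were picked from these same data, so a smaller spread in that fit comes in part by construction.

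Jund codes for the Jun protein that is usually present in unstimulated cells. It had log2 levels of 6.54, 5.96 and 6.45 in control replicates 1 to 3 and 7.24, 7.37 and 7.21 in LPS replicates 1 to 3. Every LPS value lay above every control value, and the LPS replicates were close together. Means were 6.32 ± 0.31 and 7.27 ± 0.08 (SD, n = 3). On the log2 scale LPS exceeded control by 0.95 (SE 0.19, 95% interval 0.50 to 1.40, limma adjusted p = 0.24), or 1.94-fold, so Jund did not pass over all rows. Without control replicate 2 and LPS replicate 3 the difference was 0.81 (adjusted p = 0.16, and 0.11 to 0.80 over the alternatives run on this row). A second, dimmer row of Jund did not show this difference, with 4.25, 3.58 and 4.51 in controls and 4.55, 4.17 and 4.21 after LPS. Its groups overlapped, with a log2 fold change of 0.20 (SE 0.26) that was -0.024 without control replicate 2 and LPS replicate 3 and -0.072 without control replicate 2 alone.

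Jun, the founding member of its family, had log2 levels of 7.36, 6.60 and 7.66 in controls and 7.47, 7.81 and 7.54 after LPS. The lowest value was that of control replicate 2, and the other 5 values overlapped between the groups. Jun thus had a log2 fold change of 0.40 (SE 0.28, 95% interval -0.27 to 1.07, adjusted p = 0.97), and 0.13 without the arrays that stood apart. Junb, which often opposes Jun at shared targets, had 6.61, 5.19 and 6.53 in controls and 6.61, 6.69 and 6.46 after LPS. Here too control replicate 2 alone was low, and the 2 other controls lay within the range of the LPS arrays. For Junb the log2 fold change was 0.48 (SE 0.38, 95% interval -0.43 to 1.38, adjusted p = 0.99) and 0.08 without both arrays. After quantile normalization of all arrays the value was 0.22 for Jun and 0.33 for Junb.

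Fos is the classical immediate early gene and needs a Jun partner to bind DNA. Its log2 levels were 7.12, 5.27 and 6.96 in control replicates 1 to 3 and 7.50, 7.64 and 4.49 in LPS replicates 1 to 3. The highest and the lowest values of the 6 arrays were both LPS arrays, and the groups overlapped. Means were 6.45 ± 1.03 and 6.54 ± 1.78 (SD, n = 3), with a log2 fold change of 0.09 (SE 0.92, 95% interval -2.10 to 2.29, adjusted p = 1.00). The direction depended on the arrays: it was -0.063 after quantile normalization, -0.50 without control replicate 2, 1.12 without LPS replicate 3, and -0.38 or -0.45 without LPS replicate 1 or 2. Without both arrays it was 0.53, from 7.12 and 6.96 to 7.50 and 7.64 (limma adjusted p = 0.34, the lowest among the alternatives run). Fos deviates most on these 2 arrays, so leaving them out narrows its spread by construction.

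Fosb, a close relative of Fos, followed the same pattern at a level nearer to background. It had 4.04, 2.88 and 3.53 in controls and 4.50, 4.54 and 3.01 after LPS, and control replicate 2 and LPS replicate 3 lay under the background guide. LPS exceeded control by 0.54 log2 units (SE 0.48, 95% interval -0.61 to 1.68, adjusted p = 1.00), or by 0.74 without both arrays (adjusted p = 0.30, and 0.30 to 1.00 over the alternatives). Over the 6 arrays, deviations of Fosb from its group means had a Pearson r of 0.98 with those of Fos, a description over arrays that share the same hybridisations. Fosl2 (Fra-2), a Fos relative without a strong activation domain, stayed within a narrow range, with 5.47, 5.29 and 5.42 in controls and 5.60, 5.75 and 5.55 after LPS. All LPS values lay above all controls by a small margin. For Fosl2 the log2 fold change was 0.23 (SE 0.14, adjusted p = 0.93), and its 95% interval of -0.09 to 0.56 was the narrowest among the members. After quantile normalization it was 0.06, with overlapping groups.

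Egr2 and Egr3 were the only members with a negative log2 fold change. Egr2, also called Krox20 and known from myelinating Schwann cells and from macrophages, had 6.18, 4.28 and 6.02 in controls and 4.96, 5.39 and 4.66 after LPS. Controls 1 and 3 lay above every LPS array, and control replicate 2 below every one. Over all arrays Egr2 had a log2 fold change of -0.49 (SE 0.51, 95% interval -1.71 to 0.73, adjusted p = 1.00). Egr3 had 5.66, 3.61 and 5.31 in controls and 4.11, 4.47 and 3.67 after LPS, again with control replicate 2 as the lowest of all arrays. Its log2 fold change was -0.78 (SE 0.53, 95% interval -2.05 to 0.49, adjusted p = 0.97). Without control replicate 2 and LPS replicate 3 the values were -0.93 for Egr2 (limma adjusted p = 0.19) and -1.20 for Egr3 (limma adjusted p = 0.12). Neither passed in that fit, which gave both their lowest adjusted p among the alternatives run, and each value moved by over 1.5 times. Both genes deviate most on control replicate 2, so leaving it out narrows their spread by construction. Over all alternatives, Egr2 ran from -1.10 to -0.15 and Egr3 from -1.40 to -0.38. In the fit without both arrays 2 members lay wholly below the controls, Egr2 and Egr3, and 5 wholly above, where 22.3% and 18.7% of all rows did so.

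Egr1, the best known EGR gene and a rapid target of ERK signalling, was not above the background guide on any array. Its log2 levels were 2.14, 2.06 and 2.50 in controls and 2.62, 2.49 and 2.27 after LPS. Its log2 fold change, 0.23 (SE 0.18), therefore compares values in the range of chemosensory receptor rows, and says nothing of the direction of Egr1.

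**Figure D2:**
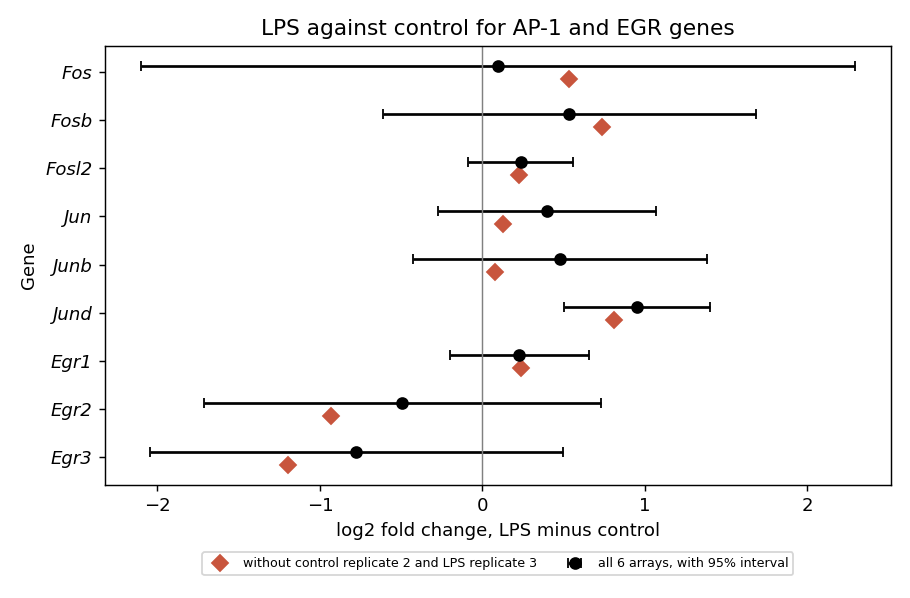
Log2 fold change of LPS over control (x axis) for each member (y axis). Black circles and bars are the estimate from all 6 arrays and its 95% interval, and red diamonds the estimate without control replicate 2 and LPS replicate 3. The interval of Jund, 0.50 to 1.40, is the only 1 that lies wholly on 1 side of 0, and it is not adjusted for the number of rows. The intervals of Fos, Egr2 and Egr3 are the widest.

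In 7 of 9 members the larger of the 2 group SDs exceeded the difference between group means, Jund and Fosl2 being the others. The share of all genes for which this holds was not counted, so it is not a trait of the members. Of the 8 members above the background guide, 7 had the lowest control value on control replicate 2 and the lowest LPS value on LPS replicate 3 (87.5%), the exception being Jun, where LPS replicate 1 was lowest. Among all genes above the guide this held for 2889 of 10885, or 26.5%. The difference of Fos from the mean of the other controls was -1.77 on control replicate 2, and that from the mean of the other LPS arrays was -3.08 on LPS replicate 3. Of 2200 genes within 0.5 log2 units of its mean level, 1, Nr4a1, was as low on LPS replicate 3 and 40 were as low on control replicate 2. Fosb differed by -0.90 and -1.51 on these arrays, and 4 of 1978 genes of like level were as low on LPS replicate 3.

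Egr2, Egr3 and Junb deviated mainly on control replicate 2. Differences there were -1.87 for Egr3, -1.83 for Egr2 and -1.38 for Junb, and on LPS replicate 3 they were -0.62, -0.51 and -0.19. Of genes of like level, 8 of 1775 were as low as Egr3 on control replicate 2 and 14 of 2058 as low as Egr2. Jund and Fosl2 did not stand out there, at -0.54 and -0.16, against medians of -0.52 and -0.37 for genes of like level. After quantile normalization the deviations on control replicate 2 were -1.45 for Fos, -1.72 for Egr2 and -1.87 for Egr3, and that of Fos on LPS replicate 3 was -3.26. Whether the handling or timing of these arrays differed was not tested.

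**Figure D3:**
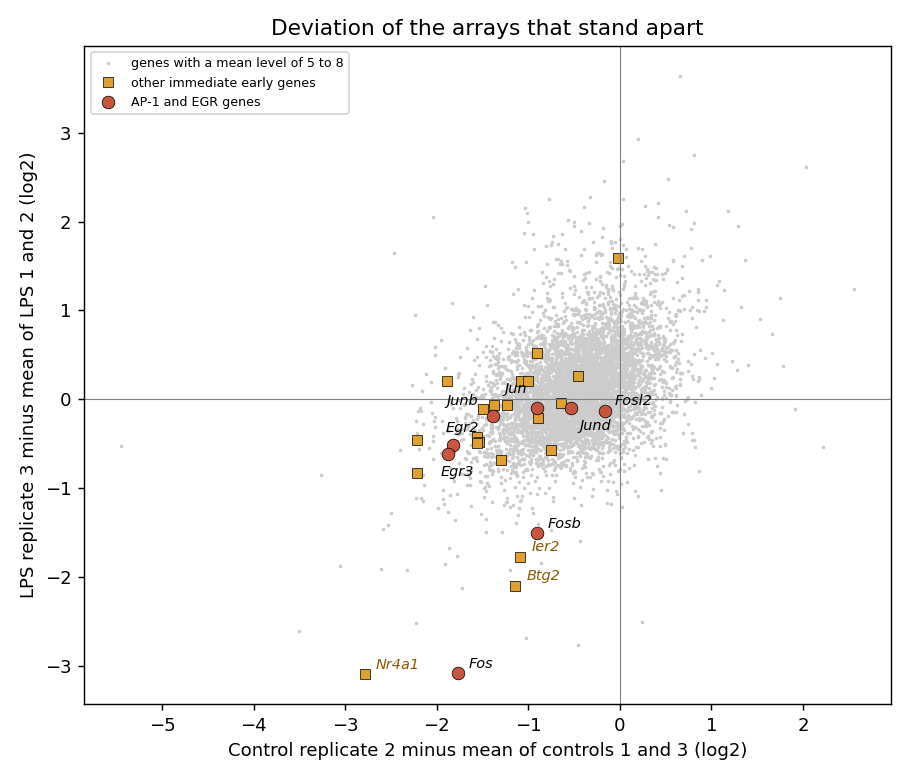
Deviation of control replicate 2 from the mean of the other controls (x axis) against that of LPS replicate 3 from the mean of the other LPS arrays (y axis), both in log2 units. Grey dots are 5899 genes with a mean level of 5 to 8, red circles the 8 members above the background guide and orange squares 21 other immediate early genes above it. Fos and Nr4a1 lie at the lower edge, at -3.08 and -3.10 on the y axis, and Jund and Fosl2 lie within the grey cloud.

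Other immediate early genes were examined as a list of 25, of which 24 had a row. Their median log2 fold change was 0.29, or 0.16 without the arrays that stood apart. In limma 0 were called, while 3 were higher and 0 lower at an unadjusted p of 0.05, against 4.98% and 1.4% of all rows. Those with the smallest p were Plk2, a polo-like kinase, at 1.48 (SE 0.31, adjusted p = 0.28), and Maff, a small Maf protein without an activation domain, at 1.07 (SE 0.29, adjusted p = 0.44). Plk2 went from 8.67, 7.65 and 8.80 to 9.70, 9.88 and 9.99, with no overlap. The third with an unadjusted p under 0.05, named after its value was seen, was Myc, at 1.66 (adjusted p = 0.45), with 3.05, 3.21 and 3.41 in controls and 4.10, 4.61 and 5.94 after LPS. BV-2 cells carry a viral myc, and whether this row also reads its transcript was not tested.

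The array pattern of Fos was shared by 3 of these genes, named after their values were seen. Nr4a1 (Nur77), an orphan nuclear receptor, had 7.11, 4.25 and 6.96 in controls and 7.01, 7.23 and 4.03 after LPS. Btg2, an antiproliferative gene, had 5.21, 4.00 and 5.07 in controls and 5.58, 5.90 and 3.65 after LPS. Ier2 had 6.06, 4.72 and 5.55 in controls and 6.62, 6.72 and 4.90 after LPS. In each of the 3, control replicate 2 and LPS replicate 3 were the lowest of their groups. In all, 13 of 21 list genes above the guide had this order (61.9%), against 26.5% of all genes above it. Further list genes, also named after their values were seen, were low on control replicate 2 mainly, such as Ier3, with differences of -2.22 there and -0.46 on LPS replicate 3. Zfp36, which codes for a protein that destabilises cytokine messages, had -2.22 and -0.83.

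By Pearson r over the 6 arrays, the 5 genes whose levels were most like those of Fos, among 10884 genes above the guide, were Gm12739, Gatb, Taco1, Thra and Btg2, each with r of 0.99. The first 4 moved over a smaller range than Fos: Gatb, for example, had 5.75, 5.29 and 5.83 in controls and 5.94, 5.94 and 5.14 after LPS. For Jund, the member with the smallest p, they were Rapgef2, Jak2, Il1rn, Spryd7 and Mmp9, each with r of 1.00. With 6 arrays and this many genes, such r are the top of a long ranking and are given as a description.

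The promoters of the members were searched for motifs in the 250 bases before each RefSeq transcript start (GRCm38.p6), for which 7 of the 10 members had a window. Fos is shown because it was low on control replicate 2 and LPS replicate 3, and Egr2 because it was low mainly on control replicate 2. Jun is shown because it holds an AP-1-like element. Whether motifs go with these array patterns was not tested. Capitals mark the motifs. The Fos window is chr12:85473640-85473889 on the plus strand and the Jun window chr4:95052223-95052472 on the minus strand. The Egr2 stretch of 30 bases, chr10:67537789-67537818 on the plus strand, ends 51 bases before 1 of its annotated starts.
Fos: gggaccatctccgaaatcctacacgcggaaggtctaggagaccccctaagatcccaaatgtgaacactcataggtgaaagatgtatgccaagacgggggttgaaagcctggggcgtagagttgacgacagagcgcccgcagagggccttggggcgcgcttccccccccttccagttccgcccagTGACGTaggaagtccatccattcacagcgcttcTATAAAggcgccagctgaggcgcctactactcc
Jun: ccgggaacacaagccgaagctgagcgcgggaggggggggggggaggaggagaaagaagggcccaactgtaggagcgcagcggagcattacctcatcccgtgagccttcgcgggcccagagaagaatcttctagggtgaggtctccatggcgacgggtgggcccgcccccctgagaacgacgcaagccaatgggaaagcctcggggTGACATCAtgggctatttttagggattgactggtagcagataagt
Egr2: tcctcagtCCATATATGGgcagcgACGTCA
The motifs searched on both strands were the CArG box bound by serum response factor, TGACGT of cAMP response elements, TGACNTCA, TGANTCA, GCGNGGGCG of EGR proteins and TATAAA. AP-1 sites match TGANTCA, but any base was taken for N, so that pattern is broader than AP-1 sites. A match to TGACNTCA may overlap 1 to TGACGT.

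In Fos, TGACGT began 66 bases and TATAAA 33 bases before the start. Egr2 had 5 windows for its annotated starts. In the window shown, a CArG box with the letters CCATATATGG began 72 bases before the start and was followed by TGACGT on the minus strand, printed as ACGTCA. The same letters lay 73 and 133 bases before 2 other starts, 1 window held another CArG box without TGACGT, and 1 held none of the motifs. Jun held TGACATCA, a match to TGACNTCA, 45 bases before its start. Fosb and Fosl2 each held GCGNGGGCG, and the windows of Junb and Jund held none of the 6 motifs. Over all 32851 windows, 1.47% held a CArG box, 6.47% TGACGT, 7.49% TGACNTCA, 6.75% TGANTCA, 4.70% GCGNGGGCG and 12.4% TATAAA. These matches are letters in a window and were not tested as binding sites. Sequence further upstream was not searched, so no window shows that a gene, Fos included, lacks a motif.

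Partners and regulators of AP-1 and EGR were examined through 5 more lists. For comparison, 4.98% of all rows were higher and 1.4% lower at an unadjusted p under 0.05 (limma). LPS values lay wholly above the controls in 7.74% of all rows and wholly below in 3.48%. Of 14 bZIP factors that can pair or compete with AP-1, 0 were called, with 1 higher and 0 lower at an unadjusted p under 0.05 and a median log2 fold change of 0.26, which was -0.040 without the arrays that stood apart. Maff had 3.68, 2.97 and 3.77 in controls and 4.54, 4.93 and 4.17 after LPS, without overlap. Batf, a Jun partner that lacks an activation domain, differed by 0.48 (SE 0.23, adjusted p = 0.85). Atf3, an inducible repressor of inflammatory genes named after its values were seen, had 8.59, 7.08 and 8.64 in controls and 8.71, 8.79 and 8.91 after LPS. Its log2 fold change of 0.70 (adjusted p = 0.93) was 0.14 without the arrays that stood apart, and the low control was again replicate 2.

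Of 9 serum response, ternary complex and CREB factors, which act on genes such as Fos and Egr1, 0 were called and 0 passed an unadjusted p of 0.05. Their median was 0.10, and -0.17 without the arrays that stood apart. The smallest p were those of the CREB coactivator Crtc2, at 0.33 (SE 0.17, adjusted p = 0.89) but 0.11 without those arrays, and of Crem, at 0.33 (SE 0.20, adjusted p = 0.94). Of 10 MAP kinase pathway genes 0 were called, and 2 were higher at an unadjusted p under 0.05. The median was 0.19, and -0.037 without the arrays that stood apart. Mapkapk2, the p38 substrate kinase that stabilises cytokine messages, had 8.75, 7.73 and 8.71 in controls and 9.67, 9.89 and 9.40 after LPS (log2 fold change 1.26, SE 0.30, adjusted p = 0.36). Map3k8 (Tpl2), which links LPS to ERK, differed by 0.71 (SE 0.18, adjusted p = 0.40). In both genes all LPS values lay above all controls.

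Of 5 EGR corepressors and EGR-like factors, 0 were called, while 1 was higher and 1 lower by an unadjusted p of 0.05. Nab2, a corepressor that binds EGR proteins and is itself an EGR target, had 7.12, 6.31 and 7.22 in controls and 5.76, 5.92 and 6.56 after LPS. Only LPS replicate 3 exceeded a control, control replicate 2. Nab2 differed by -0.81 (SE 0.32, adjusted p = 0.73), and by -1.33 without the arrays that stood apart (adjusted p = 0.054, and 0.054 to 1.00 over the alternatives). Nab1, its relative, had 5.74, 5.71 and 6.09 in controls and 6.04, 6.38 and 6.65 after LPS, a difference of 0.51 (SE 0.20, adjusted p = 0.74) that was 0.30 without those arrays.

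Of 14 textbook AP-1 or EGR1 target genes 0 were called, with 3 higher and 1 lower at an unadjusted p under 0.05 and a median of 0.08, or -0.12 without the arrays that stood apart. Mmp9, a gelatinase with AP-1 sites in its promoter, had 4.91, 3.94 and 5.04 in controls and 6.41, 6.77 and 6.46 after LPS (log2 fold change 1.92, SE 0.31, adjusted p = 0.13). Plau, which codes for urokinase, had 9.97, 9.96 and 10.03 in controls and 8.37, 8.65 and 9.63 after LPS (log2 fold change -1.11, SE 0.32, adjusted p = 0.50). The groups did not overlap in either gene. Without the arrays that stood apart, Mmp9 was called higher at 1.62 (adjusted p = 0.048) and Plau lower at -1.49 (adjusted p = 0.048). Over the 15 alternatives the adjusted p of Mmp9 ran from 0.043 to 0.52, with 4 calls, and that of Plau from 0.048 to 1.00, with 1 call. Members of this list thus lay on both sides of 0, and no further gene of it passed in that fit.

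**Figure D4:**
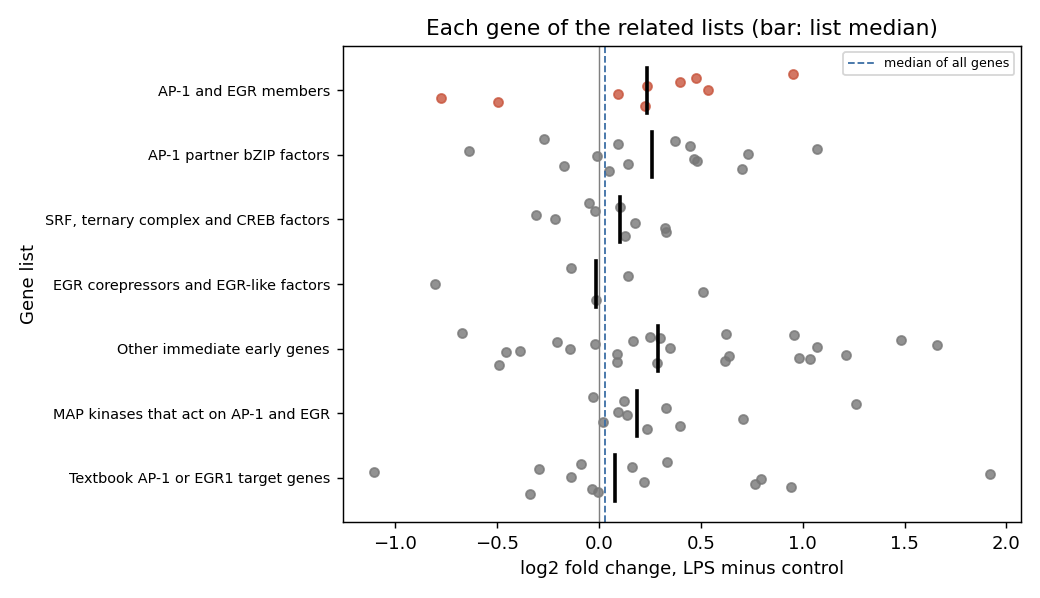
Log2 fold change of LPS over control (x axis) for each gene of 7 lists (y axis), with black bars at list medians and a dashed line at the median of all genes, 0.03. Genes with a mean level of 5 to 8 had a median of 0.17. List medians run from -0.02 to 0.29, or from -0.27 to 0.23 without control replicate 2 and LPS replicate 3. No gene shown was called in the main fit (all arrays and all rows, no array weights). Mmp9 was called in 4 of 15 alternatives, among them fits with all arrays. The highest point is Mmp9 at 1.92 and the lowest Plau at -1.11.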

How the data were processed

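Whole-transcript arrays were hybridised with RNA of BV-2 cells, 3 control and 3 LPS. The authors deposited log2 expression values per row. Per the submitters' processing notes, the program was Affymetrix Expression Console. The version, background correction, normalization and genome build are not given in the sources used here, and low signals may bias fold changes. Rows were named from the platform annotation: 23521 had 1 symbol, 1814 several and 16010 none. Rows that name more than 1 gene gave no values for a gene, except where stated. The fit used limma 3.58.1 in R 4.3.3 (lmFit, eBayes, no trend) on all 41345 rows, without filter or further normalization, and Benjamini-Hochberg adjustment; calls needed adjusted p under 0.05. The fit was tested on simulated data, where it called 10% of rows with a log2 change of 1 and 70% of those with 2. On the deposited values, no member's estimate in this fit exceeded 1 in size, though some alternatives gave larger ones. In the simulation a change of that size mostly went uncalled. The changed rows there were drawn at random above the background guide, so these shares need not hold for a given member. Errors are SD of 3 arrays or moderated SE. Named were all members, from each list up to 4 called genes or, where none was called, the 2 with the smallest p, and the 5 genes most like Jund and Fos. Genes named outside this rule are marked as such, or serve as cell type markers. Members and lists were chosen with earlier results of these data known. List entries without a row of their own were not used. Alternatives are given in the closing section. The number of arrays limits precision.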

Additional observations from a re-analysis of the deposited data

Results flagged for a closer look

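The row that names Ccdc85b and Fosl1 together (transcript cluster 17356427) was used in no comparison, and it showed a signal above the controls. Fosl1 codes for Fra-1, a Fos family protein induced by ERK signalling. The row had 3.70, 4.35 and 4.42 in control replicates 1 to 3 and 5.83, 5.61 and 5.20 in LPS replicates 1 to 3, with no overlap. The log2 fold change was 1.39 (SE 0.26, limma adjusted p = 0.20), and 1.66 without control replicate 2 and LPS replicate 3 (adjusted p = 0.097), so it was not called. Which of the 2 genes the signal comes from cannot be told apart with this row.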

How the results depend on the processing

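No alternative gave a called member: 0 were called higher and 0 lower after quantile normalization, median centring, without dim rows, with rows of 1 symbol, with 1 row per gene, with an intensity trend and robust estimation, with array weights, and in each fit without 1 array. With the replicate number as a block, 0 members were called. The main fit called 0.193% of all rows higher and 0% lower, so counts of 0 say little about these members. Shares of all rows called were not counted in the alternatives, except without both arrays (0.368% higher and 0.162% lower). Same-numbered arrays did not deviate together (r of deviations 0.04, -0.33 and -0.19 over 22180 genes), so the numbers were not taken as pairs. Fos turned negative in 4 of 15 alternatives: -0.063 after quantile normalization, -0.50 when control replicate 2 was left out, and -0.38 or -0.45 when LPS replicate 1 or 2 was (1.12 at most, when LPS replicate 3 was); the cause was not tested. On the rows reported, the other 8 members kept their sign in all alternatives run, Jund from 0.77 to 1.06. A kept sign does not show a direction. Junb fell to 0.015 without control replicate 2 and Fosl2 to 0.055 after quantile normalization, and Egr1 lay under the background guide throughout. The other row of Jund had 0.20, and turned to -0.072 without control replicate 2 and -0.024 with both arrays left out. Members wholly above the controls numbered 1 after quantile normalization (5.74% of all rows), 2 to 5 in fits without 1 array (11.1% to 14.5% of all rows), and 5 without control replicate 2 and LPS replicate 3 (18.7% of all rows). They numbered 4 when control replicate 3 was left out (13.1% of all rows) and 5 when LPS replicate 3 was (13.6%). The 4 included Egr1, which lay under the background guide. The 5, also without both arrays, included Junb, where LPS replicate 1 (6.6102) barely exceeded control replicate 1 (6.6081). Members wholly below numbered 0 to 2 without 1 array (6.1% to 13.3% of all rows), with 2 when it was control replicate 2 (13.3%), and 2 without both arrays (22.3%). Of 75 related genes, 1 was called higher and 1 lower without both arrays. Related genes called higher also numbered 1 with rows of 1 symbol, 1 with 1 row per gene and 1 with array weights, alternatives chosen for these genes after the data were seen, and 0 in the other fits. Fewer arrays per group make non-overlap more frequent by construction.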
